A study of Caenorhabditis elegans with 6 samples.

Results

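Fatty acids are burned only after they have been activated, carried into an organelle and shortened, and each of these steps has its own gene family in Caenorhabditis elegans. The genes described here are those with symbols of the acs (acyl-CoA synthetase), cpt (carnitine palmitoyltransferase), acdh (acyl-CoA dehydrogenase), ech (enoyl-CoA hydratase), acox (acyl-CoA oxidase) and hacd (hydroxyacyl-CoA dehydrogenase) families in the deposited table, together with kat-1, daf-22, dhs-28, maoc-1 and F53A2.7. The symbols acdh-1 and ech-6, whose enzymes belong to other routes, were left out. This gave 54 protein-coding genes of the 46589 genes in the count table, and 52 of them had enough reads to be tested, among 16391 tested genes in all. The 2 others, acs-18 and acdh-8, had at most 10 reads in any library. Several of the genes kept are also assigned to another route. The paper lists hacd-1, kat-1, acdh-3, acdh-7, acdh-8, acdh-10, ech-1, ech-3, ech-5, ech-7, ech-8 and ech-9 among its enzymes of branched-chain amino acid degradation.

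The libraries were made from whole wild-type worms of strain Bristol N2, collected as adults 5 days after the L4 larval stage. A group of 3 libraries is labelled bcat-1 RNAi and a group of 3 is labelled control. In feeding RNAi, worms eat E. coli that produce double-stranded RNA of a target gene, here bcat-1, the transaminase of branched-chain amino acids, or carry a control vector. Feeding began in young adults on the same bacterial strain, HT115, and all worms were washed every day to remove offspring. By protocol and label the worms share strain, age and food apart from the double-stranded RNA. Markers of moulting larvae differed between the groups, as given below, and whether larvae remained in the samples was not tested. Every library is a pool of whole animals, in which fewer cells of a type and less RNA per cell cannot be told apart. Whether the libraries of a group come from separate cultures is not stated in the labels, so that the spread behind the p-values may be technical.

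In the cell, an acyl-CoA synthetase first joins a fatty acid to coenzyme A. Long chains are then handed to carnitine by an outer-membrane palmitoyltransferase, moved into the mitochondrion, and returned to coenzyme A by an inner-membrane one, after which each turn of beta-oxidation runs through a dehydrogenase, a hydratase, a hydroxyacyl-CoA dehydrogenase and a thiolase, which releases acetyl-CoA. Peroxisomes run a similar spiral that begins with an acyl-CoA oxidase, and in C. elegans the peroxisomal enzymes acox-1, maoc-1, dhs-28 and daf-22 are known for shortening the side chains of ascarosides, the small molecules that make up the dauer pheromone.

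Libraries labelled bcat-1 RNAi held 38347771 to 44137496 counted reads, of which the 54 genes took 0.405 to 0.456%, and controls held 32784443 to 43274827, of which they took 0.434 to 0.455%. The target gene bcat-1 had 223, 102 and 287 CPM in libraries labelled bcat-1 RNAi, against 135, 135 and 162 CPM in controls (CPM, counts per 1e6 counted reads, scaled with the TMM method that evens out library composition), with replicates 1, 2 and 3 in that order here and throughout. It was above all controls in replicates 1 and 3 and below them in replicate 2, so that the libraries do not show the fall the label implies, and they are named by their label only. Reads of the fed double-stranded RNA and of the worm's own bcat-1 transcript cannot be told apart in these counts. The difference was log2 0.50 ± 0.30 (SE; edgeR quasi-likelihood test with Benjamini-Hochberg adjustment, adjusted p = 0.169), and it varied with the libraries: log2 0.79 without RNAi replicate 2 (adjusted p = 0.00291 by the same edgeR test), 0.19 without RNAi replicate 3 (edgeR adjusted p = 0.573) and 0.15 (edgeR adjusted p = 0.705) when control replicate 1 was left out as well. Replicate 3 of the group labelled bcat-1 RNAi stood apart from the other 2, with a chi-square of their read counts of 48.1 and 63.0 per degree of freedom against them, while all other pairs within a group lay between 13.8 and 27.5. Marker lists of tissues and stages also differed between the groups. All 9 markers of germ line and oocytes were lower, with summed levels of 4786, 4841 and 3692 CPM in libraries labelled bcat-1 RNAi, against 8521, 9796 and 8084 CPM in controls. All 7 markers of moulting larvae were higher, with sums of 769, 907 and 678 CPM in libraries labelled bcat-1 RNAi, against 131, 63.4 and 56.5 CPM in controls. Of the neuron markers 9 of 10 rose, and of the epidermis markers 5 of 6. Among all tested genes 36.0% were called higher and 25.6% lower. The germ line markers lie in the top bins of level described below, where 62.7% and 65.1% of genes were lower. The 8 markers of the intestine, the main site of fat storage in the worm, summed to 340.5, 285 and 277 CPM in libraries labelled bcat-1 RNAi, against 344, 303 and 289.6 CPM in controls, with 5 higher and 1 lower. Of 6 body muscle markers 2 were higher and 3 lower, and of 4 tested sperm markers 2 were higher. Their part in the results on fatty acid genes was not tested.

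Across the 52 tested genes 21 were called lower and 10 higher in libraries labelled bcat-1 RNAi under TMM scaling, a split that turned to 15 lower and 19 higher when libraries were scaled by size alone, and 21 were not called (edgeR's quasi-likelihood test, two-sided, Benjamini-Hochberg adjusted p under 0.05 over all tested genes). Of all tested genes, 25.6% were called lower and 36.0% higher, 61.6% in either direction. The median log2 fold change was −0.16 over the fatty acid genes and 0.15 over all genes. A change of at least 2-fold was called for 7 fatty acid genes that were higher and 3 that were lower, where 24.3% and 2.90% of all tested genes passed. The groups did not overlap for 35 of the genes, and did not for 71.2% of all tested genes. With upper quartile scaling 16 fatty acid genes were higher and 17 lower. Under upper quartile scaling and library size alone the median of all tested genes was 0.28 and 0.40, and that of the fatty acid genes −0.02 and 0.10, each below the median of all genes. Without the library that stood apart, RNAi replicate 3, 10 were higher and 19 lower, and without RNAi replicate 1, 6 were higher and 19 lower.

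**Figure D1:**
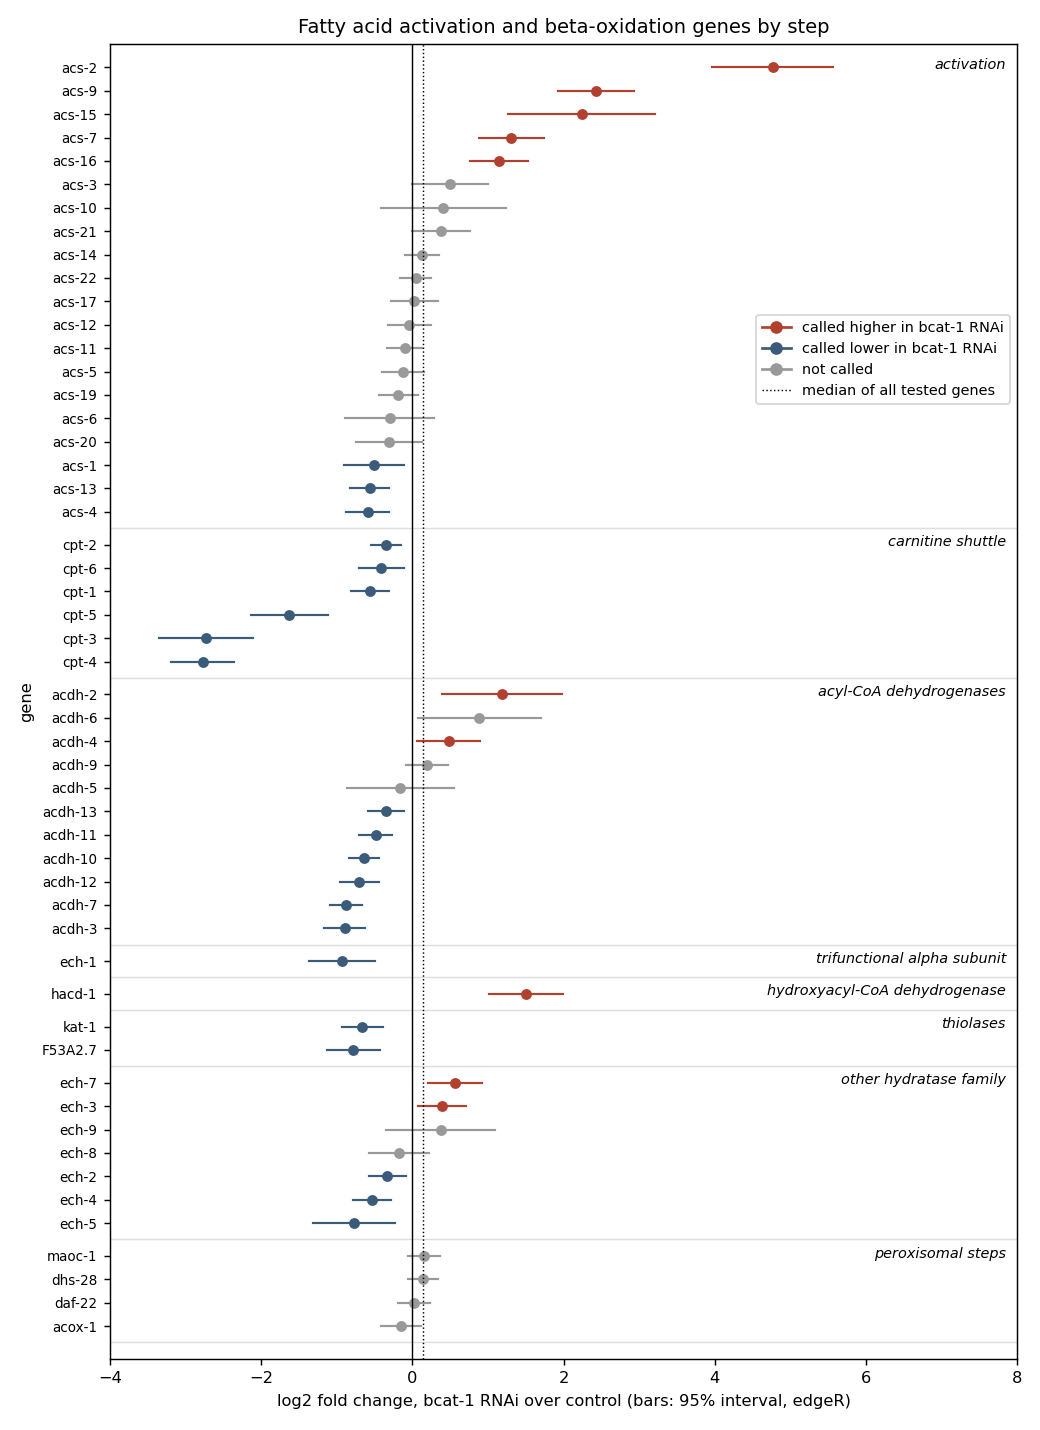
Each point is the log2 fold change of a tested gene, libraries labelled bcat-1 RNAi over control, with its 95% interval from the edgeR fit (n = 3 libraries per group). Genes are ordered by step. All 6 carnitine palmitoyltransferase genes lie left of 0, acs-2 lies farthest right at 4.76, and the 4 peroxisomal genes have intervals that hold 0.

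How strongly a gene was expressed went with the direction of change in this dataset, and the fatty acid genes were read against that background. Among the tested genes ordered by mean level into 10 bins, the bin from 0.127 to 0.430 CPM had a median log2 fold change of 1.19 and the bin from 151 to 14855 CPM one of −0.40. In the top bins, from 80.8 CPM upwards, 62.7% and 65.1% of all genes were called lower and 7.63% and 6.41% higher. Of the 15 fatty acid genes in these bins 12 were lower, 2 were higher and acs-19 was not called. The 2 that were higher, acs-2 and hacd-1, had larger log2 fold changes than 99.9% and 98.5% of the genes in their bin. Bins rest on the mean over both groups, so that a gene's own change helps to place it. The control means of acs-2 and hacd-1, 9.51 and 50.9 CPM, lie below 80.8 CPM, and only their rise brings them into these bins. Of the other 13, cpt-1, cpt-2, acs-1, acs-13 and acs-19, 5 in number, lay within the middle 50% of their bin and 8 lay under it. Of the genes in the same bin, 2.07% and 2.44% were lower in log2 fold change than acdh-3 and acdh-7, 8.79% and 8.91% than F53A2.7 and kat-1, 10.3% and 14.2% than acdh-10 and acdh-12, and 18.7% and 23.7% than ech-4 and acs-4. In the bin from 4.16 to 9.09 CPM, where 14.3% of genes were lower and 47.3% higher, cpt-3, cpt-4 and cpt-5 were lower, and 0.244%, 0.183% and 1.22% of the bin's genes had a lower log2 fold change.

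**Figure D2:**
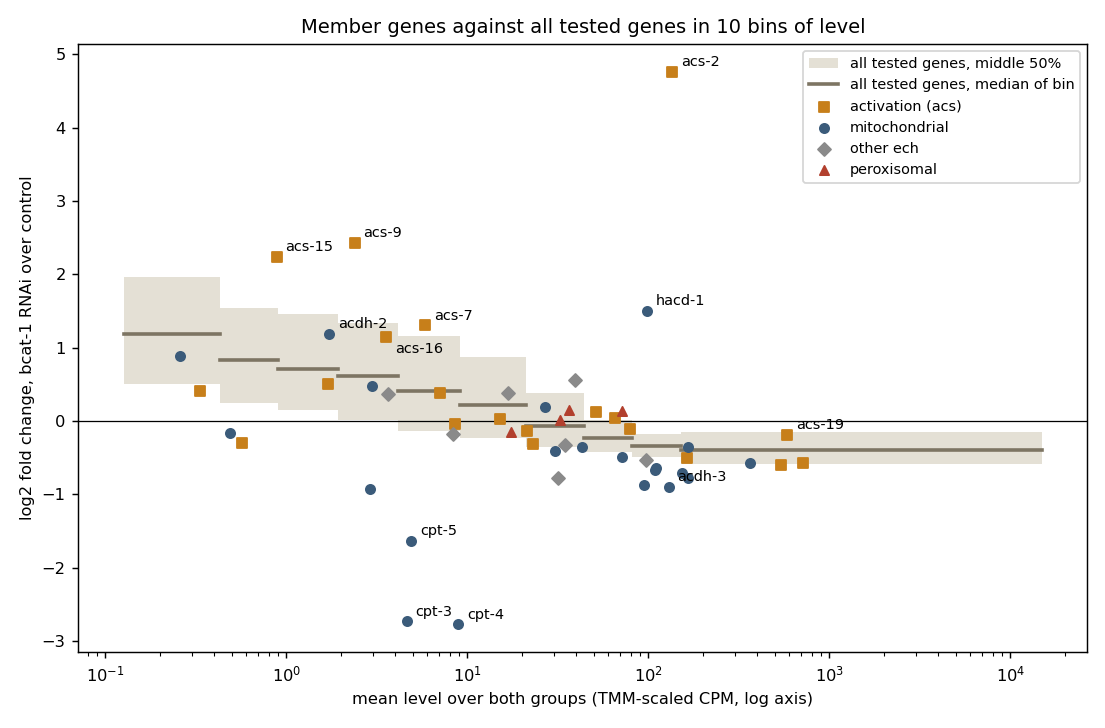
The horizontal axis is the mean level over both groups (TMM-scaled CPM, log axis) and the vertical axis the log2 fold change, libraries labelled bcat-1 RNAi over control. Bands and lines give the middle 50% and the median of all tested genes in 10 bins of level. Symbols give the fatty acid genes by group: activation, mitochondrial, other ech and peroxisomal. Of the 15 fatty acid genes above 80.8 CPM 5 lie within the band and 8 under it, while acs-2 and hacd-1 lie far above it and cpt-3, cpt-4 and cpt-5 far below.

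Among the genes of the activating step, 20 acyl-CoA synthetases were tested, of which 5 were higher, 3 were lower and 12 were not called, with a median of 0.03. These shares, 25% higher and 15% lower, are below the 36.0% and 25.6% of all tested genes. The largest rise among the 52 tested genes was that of acs-2 (chromosome V, 15567394 to 15569897, plus strand, WBcel235), a synthetase of mitochondrial beta-oxidation known to be induced by fasting through the nuclear receptor NHR-49. It had 231, 376 and 174 CPM in libraries labelled bcat-1 RNAi, against 9.59, 5.96 and 12.98 CPM in controls. The lowest of the 3 libraries labelled bcat-1 RNAi was above the highest control. The log2 fold change was 4.76 ± 0.35 (SE), or 27.2-fold (edgeR adjusted p = 1.22e-05). C32E8.6, a synthetase gene outside the 54 because its deposited symbol is not of the acs form, had a log2 fold change of 5.14. The gene acs-9, which RefSeq now names pkal-1, had 3.72, 3.80 and 4.56 CPM in libraries labelled bcat-1 RNAi, against 0.694, 0.589 and 0.927 CPM in controls, a log2 difference of 2.43 ± 0.22 (SE, edgeR adjusted p = 3.71e-05). Its groups did not overlap. A stretch of 228 of its 1620 exon bases is shared with T20F7.1 on the other strand, whose reads cannot be separated here. The rarely expressed acs-15 had 1.51, 1.204 and 1.70 CPM in libraries labelled bcat-1 RNAi, against 0.570, 0.104 and 0.206 CPM in controls. The groups did not overlap, but the control values rest on 23, 3 and 8 reads, and the log2 difference of 2.24 ± 0.43 (SE, edgeR adjusted p = 0.00212) became 3.15 without control replicate 1. The remaining rises were those of acs-7, an enzyme of ascaroside synthesis (log2 1.31, edgeR adjusted p = 4.77e-04), and acs-16 (log2 1.15, edgeR adjusted p = 5.10e-04).

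The synthetase genes that fell, acs-13, acs-4 and acs-1, held places 1, 3 and 4 of the family in each control by RPKM, the level per exon length. The long-chain enzyme gene acs-13 had 606, 571 and 539.8 CPM in libraries labelled bcat-1 RNAi, against 821, 945 and 778 CPM in controls, and acs-4, of the same class, had 462, 468 and 361 CPM in libraries labelled bcat-1 RNAi, against 638, 701 and 609 CPM in controls. For both genes every library labelled bcat-1 RNAi lay below every control, and the log2 differences were −0.57 ± 0.11 and −0.59 ± 0.13 (SE, edgeR adjusted p = 0.00254 and 0.00345). The gene acs-1, needed for monomethyl branched-chain fatty acids, had 149, 139 and 117 CPM in libraries labelled bcat-1 RNAi, against 243, 186 and 146 CPM in controls. Its groups overlapped, and its call (log2 −0.51, edgeR adjusted p = 0.0301) was lost without RNAi replicate 2 or 3 or control replicate 1 or 2, with edgeR adjusted p of 0.0631, 0.104, 0.103 and 0.0752. It was lost too with upper quartile scaling (log2 −0.37, edgeR adjusted p = 0.0896) and library size alone (log2 −0.26, edgeR adjusted p = 0.206). The acetyl-CoA synthetase gene acs-19 averaged 544 ± 40.8 CPM in libraries labelled bcat-1 RNAi and 619 ± 61.5 CPM in controls (SD, n = 3) and was not called (log2 −0.19, 95% interval −0.44 to 0.07). Not called either were acs-20 (log2 −0.31) and acs-22 (log2 0.04), which are of the fatty acid transport protein type, although acs-22 was called higher with library size alone (log2 0.29, edgeR adjusted p = 0.0112) and with limma on RPKM values. With library size alone acs-14 and acs-21 were also called higher (log2 0.38 and 0.63, edgeR adjusted p = 0.0201 and 0.0268). Of the other uncalled synthetases, acs-3 (log2 0.50) passed the test without RNAi replicate 3 or control replicate 3, with edgeR adjusted p of 0.0489 and 0.0367, against 0.0773 with all libraries, and it also passed with upper quartile scaling, library size alone, a filter of 1 CPM in 3 libraries and limma, at log2 0.33 to 0.74.

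The make-up of the family's transcripts differed with acs-2. In RPKM (reads per kilobase of exon and per 1e6 counted reads, as deposited), acs-2 had 136 ± 51.5 RPKM in libraries labelled bcat-1 RNAi and 4.23 ± 1.67 RPKM in controls (SD, n = 3). It was in places 4, 3 and 4 of 21 acs genes in libraries labelled bcat-1 RNAi and in places 11, 13 and 10 in controls. Its share of the summed acs RPKM was 13.3 ± 3.93% in libraries labelled bcat-1 RNAi and 0.452 ± 0.197% in controls. The share of acs-13 was 23.5 ± 2.06% in libraries labelled bcat-1 RNAi and 30.9 ± 0.996% in controls, that of acs-4 was 16.4 ± 0.962% in libraries labelled bcat-1 RNAi and 22.1 ± 0.304% in controls, and that of acs-19 was 24.7 ± 1.15% in libraries labelled bcat-1 RNAi and 25.05 ± 0.686% in controls. The shares of acs-2, acs-13 and acs-4 did not overlap between groups, whereas those of acs-19 did. The family's sum was 1006 ± 79.4 RPKM in libraries labelled bcat-1 RNAi and 948 ± 42.9 RPKM in controls. These shares do not depend on how libraries are scaled to each other.

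**Figure D3:**
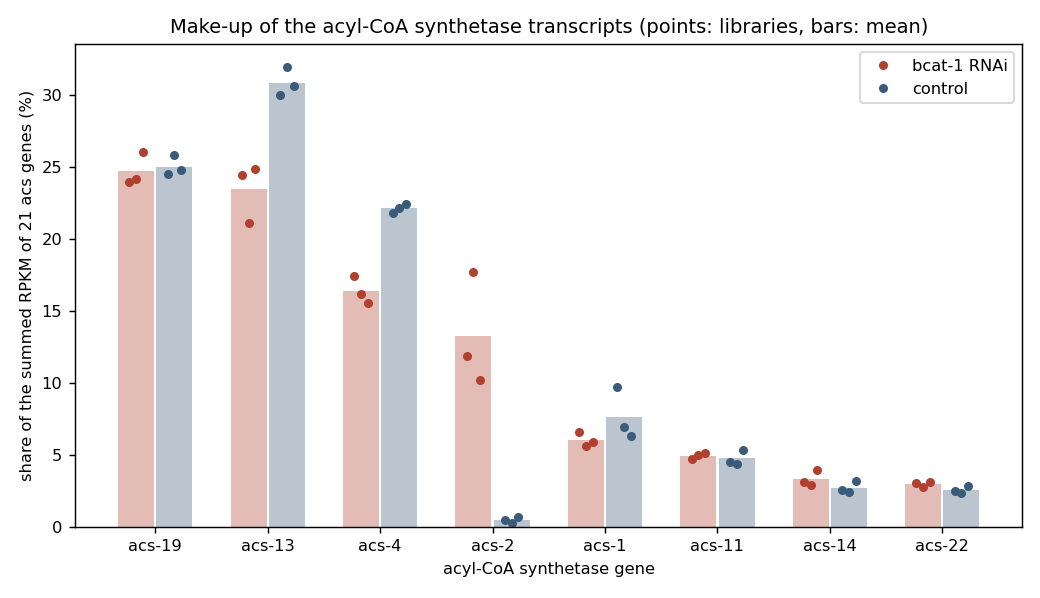
Shares of the summed RPKM of the 21 acyl-CoA synthetase genes are shown in percent for the 8 most abundant ones. Points are libraries, bars are group means, with libraries labelled bcat-1 RNAi left of controls. The share of acs-2 lies between 10.2 and 17.7% in libraries labelled bcat-1 RNAi and between 0.257 and 0.652% in controls, and the shares of acs-13 and acs-4 are smaller in libraries labelled bcat-1 RNAi than in controls.

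In the carnitine shuttle all 6 carnitine palmitoyltransferase genes were called lower, with a median of −1.097, and in each of them all 3 libraries labelled bcat-1 RNAi lay below all 3 controls. Among all tested genes 25.6% were called lower, and the groups did not overlap, in either direction, for 71.2%. The outer-membrane type gene cpt-1 had 305, 315 and 257 CPM in libraries labelled bcat-1 RNAi, against 428, 469 and 401 CPM in controls (log2 −0.57 ± 0.11 SE, edgeR adjusted p = 0.00243). The inner-membrane type gene cpt-2 had 145, 151 and 137 CPM in libraries labelled bcat-1 RNAi, against 182, 194 and 178 CPM in controls (log2 −0.35 ± 0.09 SE, edgeR adjusted p = 0.00704). The falls of both are of the size common among well-expressed genes here: 26.7% and 55.5% of the genes in their bin of level had a lower log2 fold change. The 3 less abundant members fell further. The gene cpt-4 (chromosome V, 5023706 to 5027723, minus strand) had 2.14, 2.68 and 1.99 CPM in libraries labelled bcat-1 RNAi, against 13.5, 18.5 and 14.8 CPM in controls, a level 6.83-fold higher in controls (log2 −2.77 ± 0.19 SE, edgeR adjusted p = 7.93e-06). For cpt-3 the levels were 1.05, 1.61 and 0.952 CPM in libraries labelled bcat-1 RNAi, against 7.01, 10.7 and 6.34 CPM in controls (log2 −2.73 ± 0.28 SE, edgeR adjusted p = 6.10e-05). For cpt-5 they were 2.42, 2.51 and 2.22 CPM in libraries labelled bcat-1 RNAi, against 7.16, 9.74 and 5.31 CPM in controls (log2 −1.63 ± 0.23 SE, edgeR adjusted p = 3.81e-04). The highest library labelled bcat-1 RNAi was at most 2.68 CPM for these 3 genes, and the lowest control at least 5.31 CPM. The last member, cpt-6, had 25.2, 29.8 and 23.9 CPM in libraries labelled bcat-1 RNAi, against 35.1, 30.2 and 39.5 CPM in controls (log2 −0.41, edgeR adjusted p = 0.0246) and lost its call without RNAi replicate 1 or 3 or control replicate 3, with edgeR adjusted p of 0.0926, 0.0828 and 0.0784. All 6 stayed below 0 under every alternative run, but with library size alone cpt-2 and cpt-6 were not called (edgeR adjusted p = 0.18 and 0.333), and with upper quartile scaling cpt-6 was not (adjusted p = 0.111 by edgeR).

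In RPKM, which counts per length, cpt-1 and cpt-2 made up most of the family. The share of cpt-1 was 56.02 ± 1.40% in libraries labelled bcat-1 RNAi and 57.2 ± 1.03% in controls and that of cpt-2 36.7 ± 1.36% in libraries labelled bcat-1 RNAi and 32.3 ± 0.608% in controls, in contrast to the minor members cpt-3, cpt-4 and cpt-5. The share of cpt-4 was 0.532 ± 0.0506% in libraries labelled bcat-1 RNAi and 2.51 ± 0.290% in controls. Summed over the family the level was 202 ± 10.1 RPKM in libraries labelled bcat-1 RNAi and 247 ± 7.30 RPKM in controls (SD, n = 3), and most of the family's difference in absolute level lies in cpt-1 and cpt-2, although their fold changes are smaller.

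**Figure D4:**
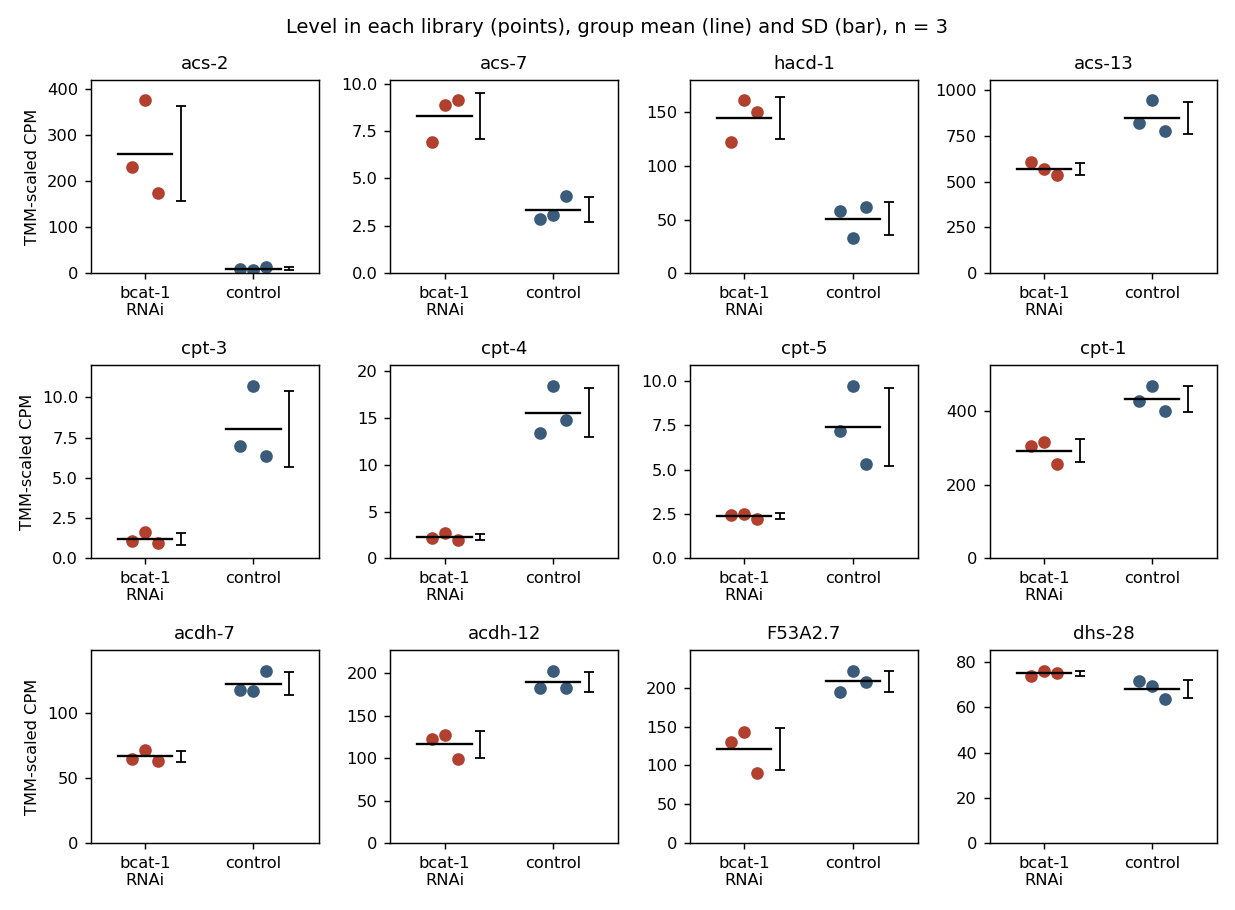
Levels in TMM-scaled CPM are plotted for 12 genes, with libraries labelled bcat-1 RNAi left of controls, each point a library, the line the mean and the bar the SD (n = 3). The groups do not overlap in any panel. The levels of acs-2, acs-7, hacd-1 and dhs-28 are higher in libraries labelled bcat-1 RNAi, of which dhs-28 was not called, and the other 8 are lower.

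Of 11 tested dehydrogenase genes 6 were lower, 2 were higher and 3 were not called, with a median of −0.35. The shares among all tested genes were 25.6% lower and 36.0% higher. The very-long-chain type gene acdh-12 had 122, 128 and 98.9 CPM in libraries labelled bcat-1 RNAi, against 183, 203 and 183 CPM in controls (log2 −0.70 ± 0.11 SE, edgeR adjusted p = 8.47e-04). The medium-chain type gene acdh-10 had 86.4, 92.5 and 80.004 CPM in libraries labelled bcat-1 RNAi, against 132, 134 and 138 CPM in controls (log2 −0.64 ± 0.09 SE, edgeR adjusted p = 3.60e-04). Its neighbour acdh-7 lies 114 bases away on the same strand of chromosome X and had 65.04, 71.9 and 63.6 CPM in libraries labelled bcat-1 RNAi, against 118, 117 and 133 CPM in controls (log2 −0.88 ± 0.10 SE, edgeR adjusted p = 8.99e-05). All libraries labelled bcat-1 RNAi lay below all controls in these 3 genes. The largest fall of the family was that of acdh-3, also without overlap, with 96.6, 99.7 and 74.7 CPM in libraries labelled bcat-1 RNAi, against 161, 179 and 164 CPM in controls (log2 −0.90 ± 0.12 SE, edgeR adjusted p = 3.05e-04). In acdh-3, 215 of 1505 exon bases are shared with other genes, so that part of its reads may be theirs. The 2 remaining falls were those of acdh-11, known for its part in heat adaptation (log2 −0.49), and acdh-13 (log2 −0.35). The call of acdh-13 was lost with upper quartile scaling (log2 −0.21, edgeR adjusted p = 0.0638), library size alone (log2 −0.10, edgeR adjusted p = 0.305) and limma on RPKM values.

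The 2 dehydrogenase genes that were higher are minor ones. The share of the family's RPKM was 0.989 ± 0.161% in libraries labelled bcat-1 RNAi and 0.446 ± 0.0532% in controls for acdh-4, and 0.459 ± 0.101% in libraries labelled bcat-1 RNAi and 0.123 ± 0.0707% in controls for acdh-2. The gene acdh-2 had 2.76, 1.94 and 2.52 CPM in libraries labelled bcat-1 RNAi, against 0.793, 0.589 and 1.73 CPM in controls (log2 1.19, edgeR adjusted p = 0.0163) and was not called without RNAi replicate 1, control replicate 1 or control replicate 2, with edgeR adjusted p of 0.056, 0.057 and 0.0685. The gene acdh-4 had 3.18, 3.47 and 3.74 CPM in libraries labelled bcat-1 RNAi, against 2.08, 2.81 and 2.60 CPM in controls (log2 0.48, edgeR adjusted p = 0.0467), and its call was lost whichever library was left out, with edgeR adjusted p from 0.0535 to 0.167, and with DESeq2 (log2 0.30, adjusted p = 0.297). The groups did not overlap in either of them. Of the uncalled genes acdh-5 and acdh-9 overlapped between groups, and acdh-9 passed as higher under upper quartile scaling (log2 0.33, edgeR adjusted p = 0.0487) and library size alone (log2 0.44, edgeR adjusted p = 0.0202). In acdh-6 all libraries labelled bcat-1 RNAi were above the controls (log2 0.89, edgeR adjusted p = 0.0562), and it passed without RNAi replicate 3 (adjusted p = 0.0461 by edgeR) and with upper quartile scaling or library size alone (edgeR adjusted p = 0.0358 and 0.0258). Per length, the 4 most abundant dehydrogenases were acdh-10, acdh-3, acdh-12 and acdh-7 in both groups by mean RPKM share, and the sum over the family was 329 ± 16.9 RPKM in libraries labelled bcat-1 RNAi and 438 ± 14.1 RPKM in controls (SD, n = 3).

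Hydration, the second oxidation and thiolysis complete the mitochondrial spiral, and their genes did not move together. The gene ech-1, an alpha subunit gene of the mitochondrial trifunctional protein, which RefSeq names ech-1.1, had 2.18, 2.24 and 1.59 CPM in libraries labelled bcat-1 RNAi, against 3.84, 4.09 and 3.53 CPM in controls (log2 −0.93 ± 0.19 SE, edgeR adjusted p = 0.00312). The hydroxyacyl-CoA dehydrogenase gene hacd-1 (chromosome V, 1460369 to 1461613, plus strand) had 122, 161 and 150.3 CPM in libraries labelled bcat-1 RNAi, against 58.2, 32.8 and 61.6 CPM in controls (log2 1.505 ± 0.22 SE, 2.84-fold, edgeR adjusted p = 4.46e-04). The lowest hacd-1 level among libraries labelled bcat-1 RNAi was above the highest control, the reverse of ech-1. The thiolase gene kat-1, whose loss is known to raise body fat in worms that also lack the tubby homologue, had 90.7, 92.9 and 69.5 CPM in libraries labelled bcat-1 RNAi, against 129, 139.9 and 133 CPM in controls (log2 −0.66 ± 0.12 SE, edgeR adjusted p = 0.00147). F53A2.7, the other thiolase gene and acaa-2 in RefSeq, had 131, 142 and 90.3 CPM in libraries labelled bcat-1 RNAi, against 195, 222 and 208 CPM in controls (log2 −0.78 ± 0.16 SE, edgeR adjusted p = 0.0026). Both thiolases were lower in every library labelled bcat-1 RNAi than in any control, and RNAi replicate 3 was the lowest in both.

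In RPKM hacd-1 had 154 ± 24.997 RPKM in libraries labelled bcat-1 RNAi and 45.9 ± 15.4 RPKM in controls (SD, n = 3), and the thiolases summed to 160.4 ± 25.4 RPKM in libraries labelled bcat-1 RNAi and 225 ± 7.19 RPKM in controls. Over all 21 tested mitochondrial genes (cpt, acdh, ech-1, hacd-1, kat-1 and F53A2.7) 15 were lower, 3 were higher and 3 were not called, with a median of −0.57. Among all tested genes 25.6% were lower and 36.0% higher. In the top bins of level, which hold several of the mitochondrial genes, 62.7% and 65.1% of genes were lower. The count of higher mitochondrial genes fell to 1 without RNAi replicate 1, control replicate 1 or control replicate 2, as acdh-2 and acdh-4 lost their calls. The count of lower genes was 14 or 15 with any library left out, and 12 with library size alone in place of TMM.

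The other 7 hydratase family genes, which were not assigned to a compartment, were mixed, with 2 higher, 3 lower and 2 not called. The shares among all tested genes were 36.0% higher and 25.6% lower. The gene ech-7 had 53.2, 40.3 and 47.2 CPM in libraries labelled bcat-1 RNAi, against 35.4, 24.7 and 35.004 CPM in controls (log2 0.56, edgeR adjusted p = 0.0134), a call that was lost when RNAi replicate 1 was left out (adjusted p = 0.072 by edgeR). For ech-3 the levels were 17.5, 16.9 and 22.9 CPM in libraries labelled bcat-1 RNAi, against 14.4, 14.1 and 15.2 CPM in controls (log2 0.39, edgeR adjusted p = 0.0385), and it lost its call without RNAi replicate 1 or 3 or any of the controls (edgeR adjusted p from 0.0556 to 0.112) and with DESeq2 (log2 0.21, adjusted p = 0.307). The groups did not overlap in either gene. Among the falls, ech-4 had 81.6, 85.3 and 70.1 CPM in libraries labelled bcat-1 RNAi, against 111, 128 and 105 CPM in controls (log2 −0.54, edgeR adjusted p = 0.00327). Next, ech-2 had 30.6, 30.7 and 30.6 CPM in libraries labelled bcat-1 RNAi, against 34.95, 43.2 and 37.6 CPM in controls (log2 −0.33, edgeR adjusted p = 0.0245) and lost its call without RNAi replicate 1 or control replicate 2 (edgeR adjusted p = 0.0581 and 0.0585). The ech-2 difference was log2 −0.19 with upper quartile scaling (edgeR adjusted p = 0.123) and −0.079 with library size alone (edgeR adjusted p = 0.509), neither of them called. In ech-5 the levels were 28.01, 28.3 and 13.7 CPM in libraries labelled bcat-1 RNAi, against 36.9, 43.1 and 39.6 CPM in controls (log2 −0.77, edgeR adjusted p = 0.0198). RNAi replicate 3 was far under the other 2 in ech-5, and the log2 difference was −0.48 without it, while the call was lost without control replicate 2 (adjusted p = 0.0813 by edgeR) or with library size alone (log2 −0.53, edgeR adjusted p = 0.0703). The uncalled ech-8 and ech-9 lie 1296 bases apart on chromosome IV, and ech-9 was called higher without control replicate 1 (log2 0.83, edgeR adjusted p = 0.0263).

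None of the 4 peroxisomal genes was called at the chosen threshold, nor at an unadjusted p under 0.05, and DESeq2 called none. Among all tested genes 61.6% were called in either direction. The dehydrogenase gene dhs-28 had 73.8, 76.1 and 75.1 CPM in libraries labelled bcat-1 RNAi, against 71.3, 69.3 and 63.5 CPM in controls (log2 0.14, 95% interval −0.06 to 0.34). The hydratase gene maoc-1, which starts 634 bases from acdh-12 on the opposite strand, had 37.9, 38.8 and 38.3 CPM in libraries labelled bcat-1 RNAi, against 33.6, 36.2 and 33.2 CPM in controls (log2 0.16, 95% interval −0.05 to 0.37). In both genes all libraries labelled bcat-1 RNAi were slightly above all controls. The thiolase gene daf-22 had 31.6, 32.4 and 33.7 CPM in libraries labelled bcat-1 RNAi, against 30.5, 33.2 and 32.7 CPM in controls, with overlapping groups (log2 0.02, 95% interval −0.20 to 0.24). The oxidase gene acox-1, acox-1.1 in RefSeq, had 15.2, 17.4 and 17.1 CPM in libraries labelled bcat-1 RNAi, against 17.6, 19.8 and 17.9 CPM in controls, each below every control (log2 −0.15, 95% interval −0.42 to 0.11). Groups that do not overlap were common, at 71.2% of all tested genes. Over the 4 genes the intervals reach at most 0.37 upwards and −0.42 downwards. The calls depended on scaling: maoc-1 and dhs-28 were called higher with upper quartile scaling, with library size alone and on RPKM values, at log2 0.28 to 0.41, and with a filter of 1 CPM in 3 libraries, at log2 0.24 and 0.23, and daf-22 was called higher with library size alone (log2 0.27) and on RPKM values.

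A ratio within a library is free of that scaling. The summed RPKM of the 4 peroxisomal genes, as a percentage of that of the 22 mitochondrial genes, was 15.3, 14.5 and 17.4% in libraries labelled bcat-1 RNAi, against 11.2, 10.96 and 10.4% in controls. Without hacd-1 in the mitochondrial sum it was 18.02, 17.7 and 22.03% in libraries labelled bcat-1 RNAi, against 11.8, 11.3 and 11.1% in controls. In both versions every library labelled bcat-1 RNAi was above every control. The peroxisomal sum was 133 ± 8.16 RPKM in libraries labelled bcat-1 RNAi and 104 ± 1.71 RPKM in controls and the mitochondrial sum 846 ± 56.6 RPKM in libraries labelled bcat-1 RNAi and 958 ± 20.8 RPKM in controls (SD, n = 3). The ratio shows unequal change of the sums and not which of them changed. Genes named in these families only in RefSeq, T08B2.7 and further acyl-CoA oxidases among them, are in neither sum.

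In mitochondrial fatty acid oxidation the acyl-CoA dehydrogenase step passes its electrons to the respiratory chain through electron transfer flavoprotein. The genes of this flavoprotein were lower together with the carnitine carrier: F27D4.1 and F23C8.5, the alpha and beta subunits (log2 −0.67 and −0.61), dif-1, the carnitine-acylcarnitine carrier (log2 −0.40), and let-721, the flavoprotein's ubiquinone oxidoreductase (log2 −0.37). All 4 of this list were called lower, with a median of −0.50, where 25.6% of all tested genes were lower. By mean level all 4 lie in the top bins, where 62.7% and 65.1% of genes were lower. Of the 2 carnitine synthesis genes gbh-1 was lower (log2 −0.83) and gbh-2 was not called. Of the acyl-CoA binding proteins, which carry acyl-CoA in the cell, 4 of 6 tested were higher and 1 was lower, where 36.0% of all tested genes were higher and 25.6% lower. The rises included acbp-6 (log2 2.85), acbp-7 (log2 1.81) and acbp-3 (log2 1.49), and the fall was that of acbp-5 (log2 −0.46).

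On the side of fatty acid synthesis, fasn-1, the fatty acid synthase gene, had 799.7, 914 and 705 CPM in libraries labelled bcat-1 RNAi, against 251, 163 and 123 CPM in controls (log2 2.17 ± 0.24 SE, 4.50-fold, edgeR adjusted p = 9.28e-05). Every library labelled bcat-1 RNAi was far above every control. The acetyl-CoA carboxylase gene pod-2, which makes the malonyl-CoA that fatty acid synthase uses, was not called (log2 0.14), nor was mlcd-1, the malonyl-CoA decarboxylase gene (log2 −0.21). The glyoxylate cycle gene icl-1 was not called (log2 0.09).

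Among 15 genes of transcription factors and cofactors known for fat metabolism 5 were higher, 2 were lower and 8 were not called, shares no larger than the 36.0% higher and 25.6% lower among all tested genes. The nuclear receptor gene nhr-49, known as the regulator of acs-2 in fasting worms, had 159, 161 and 155 CPM in libraries labelled bcat-1 RNAi, against 150.0, 156 and 141 CPM in controls and was not called (log2 0.09, 95% interval −0.10 to 0.28). The largest rises were those of nhr-25 (log2 2.98), nhr-79 (log2 1.23) and nhr-62 (log2 1.09), the last known for its role in the response to dietary restriction, and the falls were those of nhr-13 (log2 −0.72) and nhr-66 (log2 −0.40), both known partners of NHR-49. The gene of another partner, nhr-80, had 9.99, 9.85 and 8.66 CPM in libraries labelled bcat-1 RNAi, against 7.80, 5.86 and 7.96 CPM in controls, with no overlap, and was not called (log2 0.40, edgeR adjusted p = 0.054). Of 11 peroxin genes, which build peroxisomes, 8 were not called, prx-1 was higher (log2 0.40), and prx-14 and prx-19 were lower (log2 −0.35 and −0.27), both below the shares among all tested genes. Of 8 genes for peroxisomal transporters and catalases, the transporter gene pmp-4 was higher (log2 0.91), pmp-3 was lower (log2 −0.29) and 6 were not called, among them the near-identical copies ctl-1, ctl-2 and ctl-3, whose levels are uncertain. For this list too the shares higher and lower are below the 36.0% and 25.6% among all tested genes. The calls of these lists were made under TMM scaling only.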

How the data were processed

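RNA of whole worms was sequenced in 6 libraries, 3 labelled bcat-1 RNAi and 3 control. The authors mapped reads with TopHat2 2.0.6 to WBcel235 and counted unique reads per gene with featureCounts, whose version is not given in the sources used here, from a kit that does not record strand. Deposited counts carry no normalisation. RPKM values, which the authors made from these counts, were deposited too and serve here for levels between genes. Counts were filtered with filterByExpr, scaled by TMM and tested with edgeR 4.0.16 (quasi-likelihood, group only, two-sided) in R 4.3.3, with Benjamini-Hochberg adjustment over 16391 genes and a threshold of 0.05. Levels are TMM-scaled CPM, and fold changes are log2 values over control.

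DESeq2 1.42.0, limma 3.58.1 on log2(RPKM + 1) and log2(RPKM + 0.1), other scalings and filters, and fits without each library were alternatives. Level bins hold 10 equal parts of the tested genes. Scripts were tested on simulated data. Members and lists were chosen with earlier results of these data known. Values per library are given for core enzymes and for the 3 largest called rises and falls of each step. Positions come from Ensembl 115, where 46179 of 46589 identifiers matched. Exons of 20 of the 54 genes overlap another gene, by 0.364 to 14.3% of their bases, and sequences were not used here. The depth of 32784443 to 44137496 counted reads limits genes of few reads most, and no within-group pair of libraries agreed within sampling noise.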

Additional observations from a re-analysis of the deposited data

How the results depend on the processing

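Of 31 called fatty acid genes, 21 (6 higher and 15 lower) kept their call and direction under all 15 alternatives. The 6 are acs-2, acs-7, acs-9, acs-15, acs-16 and hacd-1. The other 10 lost their call under at least 1 alternative, and none of the 31 reversed. No paired analysis was possible because the labels carry no replicate numbers that the groups share. The counts that moved most were those under library size alone and limma on RPKM, neither of which applies TMM scaling. All genes called lower numbered 1947 with library size alone, 1934 with limma on log2(RPKM + 1) and 1918 with limma on log2(RPKM + 0.1), against 4189. Fatty acid genes called higher numbered 19 in each of these and 16 with upper quartile scaling, against 10. In the same order of settings the activation genes called higher numbered 9 in each of the first 3, the mitochondrial ones 5 in all 4, and the peroxisomal ones 3 in the first 3 and 2 with upper quartile scaling. With a filter of 1 CPM in 3 libraries 2 peroxisomal genes were called higher. Without control replicate 1 and RNAi replicate 3 together, 1 mitochondrial and 1 peroxisomal gene were called higher. Leaving out each library in turn gave 6 to 10 fatty acid genes and 1 to 3 mitochondrial genes called higher. The log2 values of 13 genes that were not called changed sign. With library size alone they were 0.21 for acs-12, 0.14 for acs-11, 0.12 for acs-5, 0.066 for acs-19, 0.092 for acdh-5, 0.081 for ech-8 and 0.10 for acox-1. With limma they were 0.17 and 0.20 for acs-12 (pseudocount 1, then 0.1), 0.14 and 0.14 for acs-11, 0.11 and 0.12 for acs-5, 0.065 and 0.065 for acs-19, 0.020 and 0.052 for acdh-5, 0.044 and 0.047 for ech-8, and 0.085 and 0.093 for acox-1. Upper quartile scaling gave 0.10 for acs-12, 0.034 for acs-11 and 0.0092 for acs-5, and the 1 CPM filter 0.045 for acs-12. DESeq2 gave −0.048 for acs-14, −0.13 for acs-22, −0.14 for acs-17, −0.016 for maoc-1, −0.033 for dhs-28 and −0.16 for daf-22. DESeq2 size factors gave −0.078 for acs-22, −0.091 for acs-17 and −0.10 for daf-22, and no filter −0.019 for acs-22, −0.031 for acs-17 and −0.043 for daf-22. Without control replicate 1 and RNAi replicate 3, daf-22 was at −0.013. Over the single libraries left out, acs-22 ranged from −0.0035 to 0.11, acs-17 from −0.089 to 0.14, acdh-5 from −0.35 to 0.012 and daf-22 from −0.032 to 0.030. The median of all genes was 0.02 with DESeq2 size factors, 0.15 with TMM, 0.28 under upper quartile scaling and 0.40 by library size alone. Depth limits the genes of few reads most: the 95% interval of acs-10 ran from −0.42 to 1.23 and was the widest among uncalled synthetases.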

Other observations

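RefSeq places 10 more genes of the deposited table in these families under names that the deposited symbols do not carry. They were chosen after the data were seen and belong to no count in the report. Of the 9 that were tested, 3 were higher and 3 were lower in libraries labelled bcat-1 RNAi. The shares among all tested genes were 36.0% higher and 25.6% lower. C32E8.6, named acs-24, had 12.8, 12.4 and 11.2 CPM in libraries labelled bcat-1 RNAi, against 0.446, 0.277 and 0.283 CPM in controls (log2 5.14 ± 0.22 SE, edgeR adjusted p = 2.31e-06), and every library labelled bcat-1 RNAi was above every control. In RPKM, per exon length, it had 8.14 ± 0.194 RPKM in libraries labelled bcat-1 RNAi and 0.190 ± 0.0577 RPKM in controls (SD, n = 3). The controls rest on 18, 8 and 11 reads. ZK112.6, named acs-25, had 0.836, 0.782 and 0.680 CPM in libraries labelled bcat-1 RNAi, against 0.0495, 0.0346 and 0.0258 CPM in controls, and its controls hold 1 or 2 reads each, so no fold change is given. The synthetase gene R09E10.4, named acs-23, had at most 2 reads in any library and was not tested.

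T08B2.7, named ech-1.2 and a relative of ech-1 with a higher RPKM, had 291, 316 and 189.8 CPM in libraries labelled bcat-1 RNAi, against 399.7, 441 and 392 CPM in controls (log2 −0.63 ± 0.17 SE, edgeR adjusted p = 0.0115). Its 3 libraries labelled bcat-1 RNAi were all below the controls, with RNAi replicate 3 the lowest. Of the acyl-CoA oxidases named in RefSeq only, F59F4.1 (acox-1.6) was higher (log2 1.02), C48B4.1 (acox-1.5) and F08A8.4 (acox-1.4) were lower (log2 −1.005 and −0.81), and F08A8.2, F08A8.3 and F58F9.7 (acox-1.2, acox-1.3 and acox-3) were not called. F59F4.1 had 17.1, 15.003 and 17.5 CPM in libraries labelled bcat-1 RNAi, against 7.80, 8.73 and 8.04 CPM in controls, with no overlap between groups.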
